A study of Mus musculus with 2 samples.

Results

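The genes described here are the chemokines and chemokine receptors of the mouse, measured in single cells of intestinal adenoma organoids. They were chosen by symbol alone, as every gene whose name in the control gene table begins with Ccl, Cxcl, Cx3cl, Ccr, Cxcr, Cx3cr or Ackr followed by a digit and whose Ensembl identifier is in both tables. This gave 65 of 27514 shared genes, of which 43 code for ligands and 22 for receptors. The RSPO1-Fc group was 1 adenoma organoid culture given RSPO1-Fc, in which R-spondin 1, a protein that strengthens Wnt signals, is joined to the Fc part of an antibody, at 10 μg/ml by the treatment protocol, while another label of that sample gives the number in milligrams. The control group was 1 adenoma organoid culture without the fusion protein. Both came from C57BL/6 mice of 17 weeks that were ApcMin/+, so the cells of both groups came from animals with the Min mutation in Apc, whose product promotes the breakdown of β-catenin. Each group was 1 droplet library, no label names the animals of origin, and no difference between them has a replicate check.

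Chemokines are small secreted or membrane-held proteins that guide the movement of cells bearing their receptors, which are G protein-coupled. Ligands named Cxcl with a Glu-Leu-Arg motif, such as Cxcl1, Cxcl2, Cxcl3 and Cxcl5, attract neutrophils through Cxcr2, whereas Ccl2, Ccl7 and Ccl12 attract monocytes through Ccr2. The atypical receptors of the Ackr group bind chemokines without coupling to G proteins and remove or present them. In the gut, Ccl25 and Ccl28 are known to guide lymphocytes to the mucosa, Ccl20 draws Ccr6-bearing cells to the epithelium, and Cx3cl1 is read by Cx3cr1 on resident macrophages.

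Barcodes with at least 2000 unique molecular identifiers (UMIs), 500 genes and at most 20% mitochondrial UMIs were kept as cells, which left 2908 in the RSPO1-Fc library and 3020 in the control library after doublet removal, with medians of 22254 and 18377 UMIs. The libraries shared 0 cell barcodes. Clusters were built without the 65 genes and called X-like from marker lists. Those that took no such name were called epithelial, apart from a few left unnamed. Epithelial cells numbered 2860 in the RSPO1-Fc library and 1833 in the control library, with all 9 epithelial markers present in both. The control library also held 253 macrophage-like, 142 fibroblast-like, 119 endothelial-like and 81 pericyte-like cells, classes that had no cluster in the RSPO1-Fc library. There the 12 macrophage markers summed to 4.50 CPM (UMIs of a gene per 1000000 UMIs of the class over shared genes) with 5 at 0, against 59.3 CPM with none at 0 in control epithelium. The fibroblast, endothelial and pericyte lists summed to between 39.8 and 47.4 CPM in RSPO1-Fc epithelium and between 47.8 and 113 CPM in control epithelium. The count of Xist, made from the inactive X of females, was 3 UMIs in RSPO1-Fc epithelium and 93257 in control epithelium, while the Y-linked Eif2s3y had 3859 and 0, the patterns of male and of female cells. Hoxb13, a gene of the hindgut, had 0 UMIs in RSPO1-Fc epithelium and 6608 in control epithelium, and Gata4, a gene of the proximal small intestine, had 2998 and 1. The barcode lists also differed, with 737280 and 6794880 entries. What separates the libraries in these respects cannot be told apart from RSPO1-Fc.

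Of the 65 genes, 36 reached 5 CPM in at least 1 of 6 classes, which are the RSPO1-Fc epithelium and the 5 control classes named above. These were 27 ligands and 9 receptors. A further 18 were seen below that level, and 11 had 0 UMIs in every class, among them Ccl26, Ccl27b, Ccr1l1 and 7 identifiers of Ccl19, Ccl21 and Ccl27 copies that the GENCODE M21 annotation of GRCm38 does not place. Ccl19, Ccl21a and Ccl27a have near-identical copies, so their counts are uncertain. Intervals below are 95% intervals that cover counting error only, not variation between cells or cultures.

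**Figure D1:**
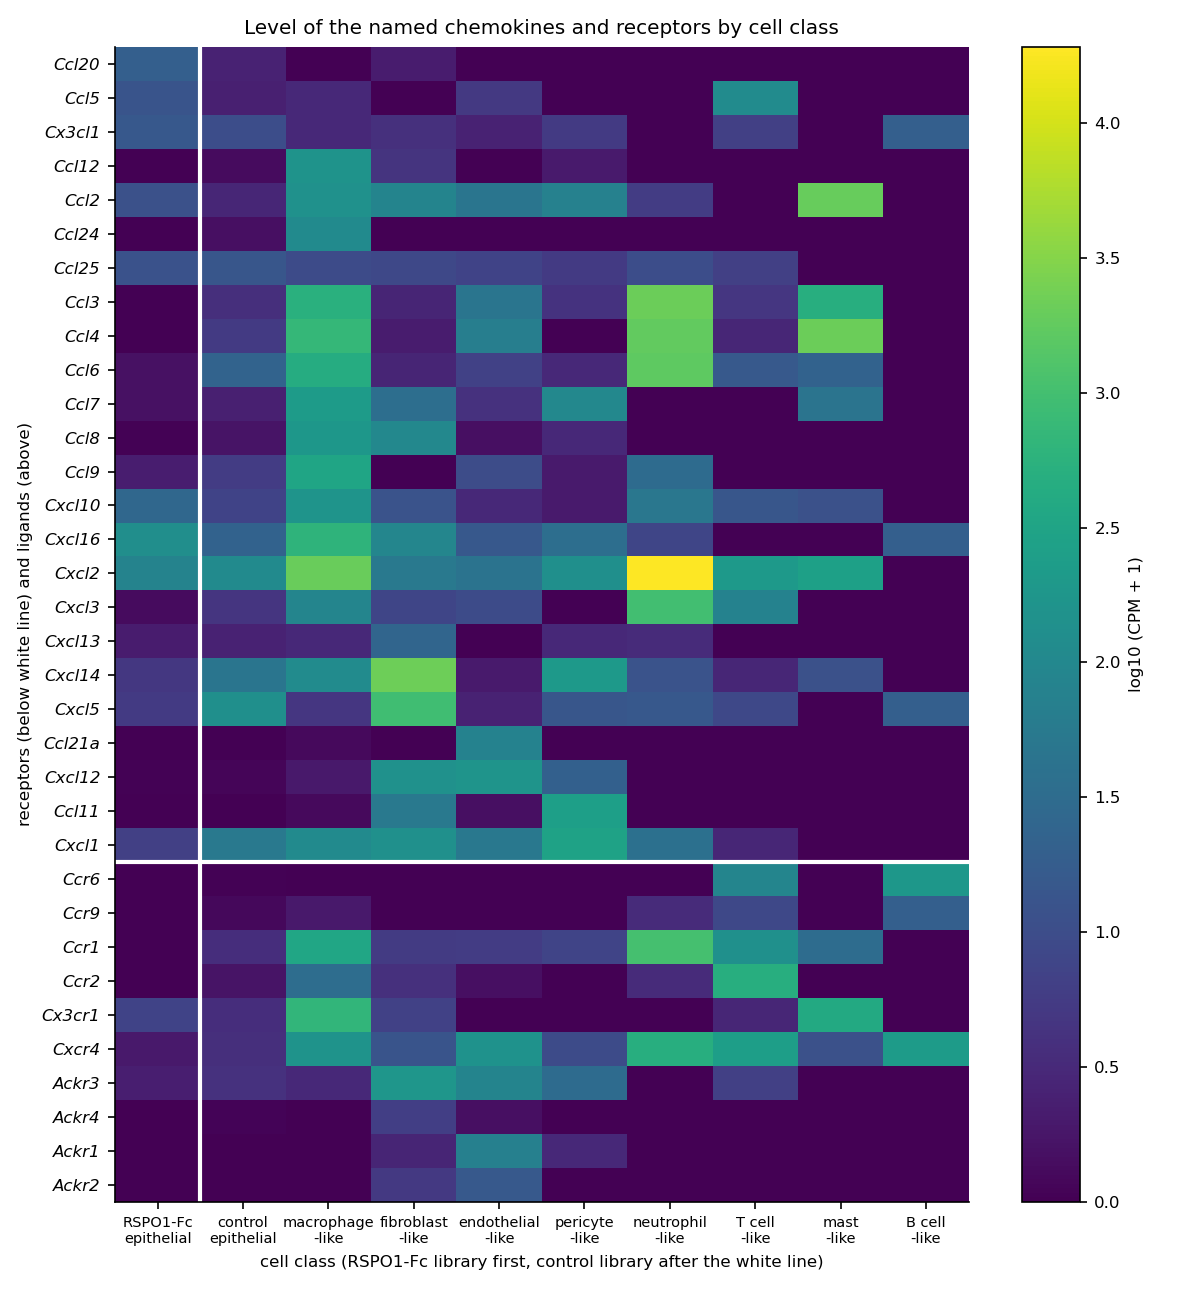
Heat map of 34 chemokines (above the white line) and receptors (below it), coloured by log10 of CPM + 1, in RSPO1-Fc epithelial cells (left column) and in classes of the control library. Cxcl16 and Ccl20 are brighter in the RSPO1-Fc column than in control epithelium, Cxcl5 and Cxcl14 are brightest in fibroblast-like cells, and the receptor rows are near 0 in both epithelial columns.

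In the epithelium, the sets of chemokines differed between the cultures. Cxcl16, Ccl20, Cxcl10, Ccl5 and Ccl2 were higher with RSPO1-Fc by 4.20-fold to 12.3-fold, and Cxcl5, Cxcl14, Cxcl1 and Ccl6 were lower by 9.54-fold to 39.5-fold. Cxcl2, Ccl25, Ccl27a and Cx3cl1 differed by less than 2-fold. Calls needed a level of 5 CPM or more on one side and a 2-fold difference or more, and 14 of the 65 genes reached that level. Of these, 6 were called higher (42.9%), where 7.99% of all 10543 genes tested were, and 4 were called lower (28.6%), where 20.4% of all were. The median log2 ratio with a pseudocount of 1 CPM was 0.18 for the 14 and -0.20 for all genes. Scaling by the trimmed mean of M values instead of CPM moved all log2 ratios up by 0.32 and made 50.2% of all calls higher instead of 28.1%, but the 10 calls among chemokine genes kept their direction and their side of the threshold.

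The neutrophil-attracting ligands Cxcl5, Cxcl3, Cxcl1 and Cxcl2 lie close together on chromosome 5 (GRCm38), all protein-coding and on the + strand. Their spans in that order are 90759360 to 90761624, 90786103 to 90789600, 90891241 to 90893115 and 90903871 to 90905938. Cxcl15, at 90794534 to 90803067, lies between Cxcl3 and Cxcl1. Cxcl5 had 4.30 CPM (293 UMIs) in RSPO1-Fc epithelium and 133.6 CPM (8308 UMIs) in control epithelium, 31.0-fold lower (27.6 to 35.0). Cxcl1 had 5.51 CPM and 52.6 CPM in the same order, 9.54-fold lower (8.57 to 10.6). Both were far apart between the libraries. Cxcl2, by contrast, had 82.8 CPM (80.6 to 84.9) in RSPO1-Fc epithelium and 111 CPM (108 to 114) in control epithelium, a ratio of 0.746 (0.720 to 0.773) that was not called. Its log2 ratio lay between -0.46 and 0.18 over all alternatives, so its direction depended on the setting. Cxcl3 stayed under 5 CPM in both, with 0.353 CPM in RSPO1-Fc epithelium and 3.54 CPM in control epithelium. So did Cxcl15, with 0.0294 CPM (2 UMIs) and 3.75 CPM (233 UMIs) in the same order.

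The measured ratios of these neighbouring genes were thus unlike each other. Free RNA, estimated below, limits that contrast, at 94.7 CPM for Cxcl2 and 6.59 CPM for Cxcl3 in control epithelium. Upstream sequences of Cxcl1, Cxcl2 and Cxcl3 are shown, with those of Ccl20 and Ccl9, the other named genes that held the NF-κB letters. The search used NF-κB letters (GGG, any pair of bases, then TTTCC) and the AP-1 letters TGANTCA on both strands, in RefSeq windows (GRCm38.p6) of 250 bases before to 50 after each start. Printed are the 130 bases just before each start, 5′ to 3′ on the gene's strand, with matches of either motif in capitals.
Cxcl1, chr5:90891115-90891244, + strand: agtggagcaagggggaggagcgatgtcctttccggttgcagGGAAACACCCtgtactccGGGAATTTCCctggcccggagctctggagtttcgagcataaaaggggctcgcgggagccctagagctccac
Cxcl2, chr5:90903769-90903898, + strand: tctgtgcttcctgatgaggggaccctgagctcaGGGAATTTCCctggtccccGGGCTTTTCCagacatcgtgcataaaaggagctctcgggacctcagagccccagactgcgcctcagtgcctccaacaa
Cxcl3, chr5:90785971-90786100, + strand: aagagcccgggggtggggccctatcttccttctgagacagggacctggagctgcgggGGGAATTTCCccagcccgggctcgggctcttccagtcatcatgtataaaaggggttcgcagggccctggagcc
Ccl20, chr1:83116636-83116765, + strand: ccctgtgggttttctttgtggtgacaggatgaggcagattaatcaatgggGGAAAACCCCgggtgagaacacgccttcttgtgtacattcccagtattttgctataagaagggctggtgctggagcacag
Ccl9, chr11:83578637-83578766, - strand: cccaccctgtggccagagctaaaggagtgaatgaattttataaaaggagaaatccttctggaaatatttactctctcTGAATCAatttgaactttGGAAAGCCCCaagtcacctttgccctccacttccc

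GGGAATTTCC stood in all 3 Cxcl windows, its first base 71 bases before the start in Cxcl1, 97 in Cxcl2 and 73 in Cxcl3 (-71, -97 and -73). The NF-κB letters were found in 6 of the 44 member genes with a window (13.6%) and in 512 of all 27025 genes (1.89%). TGANTCA was found in 9 of the 44 (20.5%) and in 8.97% of all genes, and matches of the motifs did not overlap in these genes (0). Cxcl5, Cxcl16, Ccl2 and Ccl5, all of them called, had no window in the set searched, which limits any comparison by direction. A gene that was lower with RSPO1-Fc (Cxcl1), one that was not called (Cxcl2) and one that was higher (Ccl20) all held the NF-κB letters, and Cxcl14 and Ccl6, both lower, held neither motif in their windows. Cxcl10, which was higher, held TGAGTCA at -74.

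Cxcl14, a chemokine of epithelia and fibroblasts on chromosome 13 (56288643 to 56296551), had 4.00 CPM (272 UMIs) in RSPO1-Fc epithelium and 45.1 CPM (2805 UMIs) in control epithelium, 11.3-fold lower (9.96 to 12.8). Where members took part in the clustering, or at resolution 0.5, the control epithelial class held 1626 or 1639 cells and the log2 ratio of Cxcl14 (pseudocount of 1 CPM) was -0.71 or -0.77 instead of -3.21, with no call. Ccl6, a rodent chemokine that binds Ccr1, had 0.558 CPM (38 UMIs) in RSPO1-Fc epithelium and 22.05 CPM (1371 UMIs) in control epithelium, 39.5-fold lower (28.6 to 56.1). Of the control Ccl6 UMIs, 92.0% came from epithelial cluster 4, with 239 cells, a median of 38882 UMIs and 113 CPM. Every other control epithelial cluster had at most 4.14 CPM, below the free RNA estimate for the class of 10.7 CPM (explained below). The pooled ratio thus depends on the share and depth of cluster 4 as well as on its level. The neighbour of Ccl6 on chromosome 11, Ccl9, was under 5 CPM in both, at 1.18 CPM and 4.84 CPM.

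Among ligands that were higher, Cxcl16, which is made as a membrane protein and binds Cxcr6 on T cells, had 129.6 CPM (8823 UMIs) in RSPO1-Fc epithelium and 21.6 CPM (1341 UMIs) in control epithelium, 6.01-fold higher (5.67 to 6.37). Ccl20, the ligand of Ccr6, had 19.0 CPM (1292 UMIs) in RSPO1-Fc epithelium and 1.54 CPM (96 UMIs) in control epithelium, 12.3-fold higher (9.99 to 15.3). Cxcl10, an interferon-induced ligand of Cxcr3, had 25.8 CPM in RSPO1-Fc epithelium and 6.14 CPM in control epithelium, 4.20-fold higher (3.76 to 4.70). The counting intervals of these 3 genes did not overlap, but they leave variation between cultures unmeasured. Ccl5, which attracts T cells and monocytes, had 11.7 CPM in RSPO1-Fc epithelium and 1.42 CPM in control epithelium, 8.27-fold higher (6.63 to 10.4). Ccl2, the main ligand of Ccr2, had 10.5 CPM in RSPO1-Fc epithelium and 1.88 CPM in control epithelium, 5.57-fold higher (4.57 to 6.83).

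At an equal depth of 1500 UMIs per cell, Cxcl16 was seen in 15.8% of RSPO1-Fc epithelial cells (14.5 to 17.2) and 2.51% of control epithelial cells (1.84 to 3.33). Without thinning it was seen in 74.5% and 29.95%, at median depths of 22394 and 26881 UMIs. Cxcl5 was seen at equal depth in 0.559% of RSPO1-Fc epithelial cells (0.320 to 0.907) and 11.7% of control epithelial cells (10.2 to 13.2), and without thinning in 6.57% and 35.1%. T cell-like cells of the control, which should lack both and had a median of 3338 UMIs, had 0 of 148 cells with a UMI of either at equal depth, which allows up to 2.03%. Unthinned, 2.70% of them had a UMI of Cxcl5 and 0% one of Cxcl16. The order of the libraries by share was thus that of the CPM for both genes.

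Ccl25, Ccl27a and Cx3cl1 differed by less than 2-fold, though their intervals excluded 1. Ccl25, which guides Ccr9-bearing lymphocytes to the small intestine, had 11.2 CPM in RSPO1-Fc epithelium and 13.0 CPM in control epithelium, a ratio of 0.860 (0.778 to 0.951). Ccl27a, a ligand of Ccr10, had 10.4 CPM and 16.4 CPM in the same order, a ratio of 0.634 (0.575 to 0.698). Cx3cl1, the membrane-anchored fractalkine, had 14.3 CPM in RSPO1-Fc epithelium and 9.36 CPM in control epithelium, a ratio of 1.53 (1.38 to 1.69), and passed 2-fold only when cells were thinned. Ccl28, the other Ccr10 ligand, had 4 UMIs in RSPO1-Fc epithelium and 38 in control epithelium, or 0.0588 and 0.611 CPM, which was 10.4-fold lower (3.74 to 40.1) but below the level for a call.

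**Figure D2:**
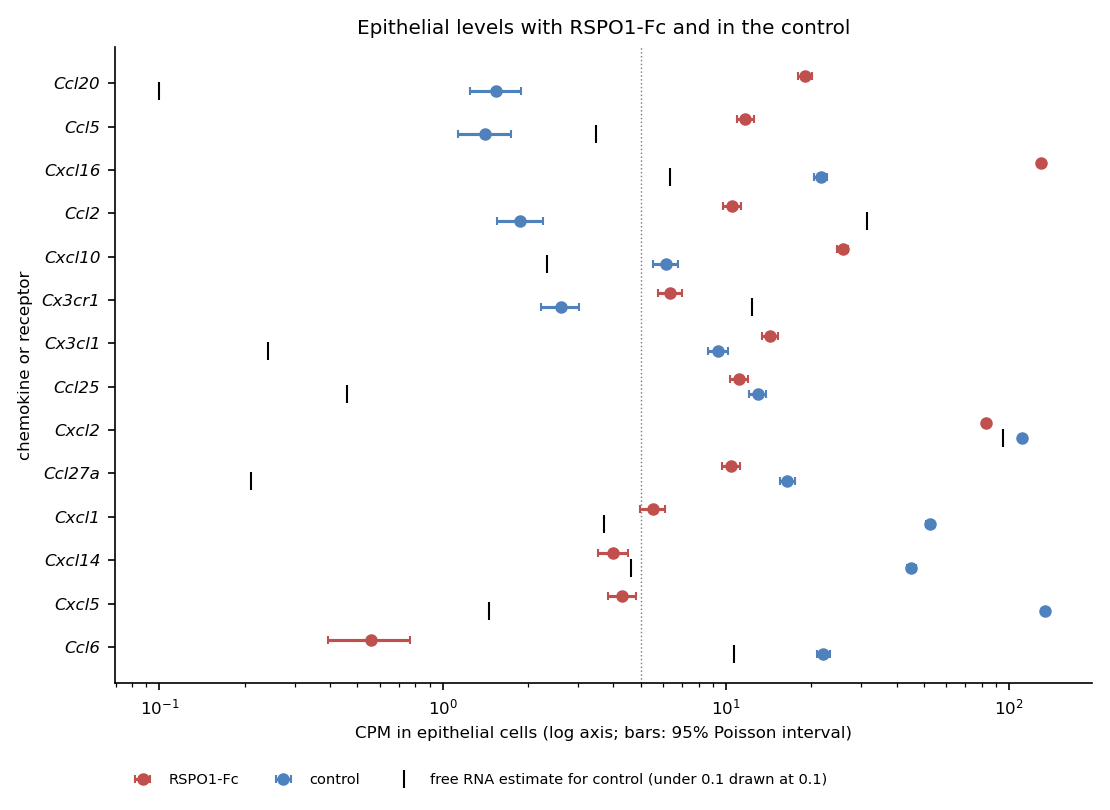
CPM on a log axis in RSPO1-Fc (red) and control (blue) epithelial cells for the 14 members with at least 5 CPM in either (dotted line), with 95% Poisson intervals, and black ticks for the estimate of free RNA in control epithelium. Ccl20, Ccl5, Cxcl16, Ccl2 and Cxcl10 lie to the right in red, Cxcl1, Cxcl14, Cxcl5 and Ccl6 to the right in blue, and the control Cxcl2 point lies next to its tick.

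RNA set free by other cells is a measured background in the control epithelium. It was estimated from the markers of 7 non-epithelial classes, as the highest share of a used marker's own level found in control epithelium, from 0.116% for fibroblast markers to 2.92% for T cell markers, times the member's level in each class, summed. Markers left out included Fbln1, Cldn5 and Mylk, at 37.6, 17.6 and 82.7 CPM in control epithelium. They had 125, 127 and 781 CPM in the class they mark, and 38.7, 0.132 and 34.8 CPM in RSPO1-Fc epithelium. The unnamed immune clusters were also left out, so the estimate is not an upper limit. Cxcl5 stood at 133.6 CPM against an estimate of 1.46, Cxcl14 at 45.1 against 4.63 and Cxcl1 at 52.6 against 3.70, well above it. Cxcl16 at 21.6 CPM against 6.37, Cxcl10 at 6.14 against 2.33 and Ccl6 at 22.05 against 10.7 stood closer. Cxcl2 was at 111 CPM against 94.7, so the estimate came close to its control level, whereas in RSPO1-Fc epithelium 82.8 CPM stood beside macrophage markers of 4.50 CPM in sum. The control levels of Ccl2 (1.88 CPM against 31.4), Ccl5 (1.42 against 3.49), Ccl3, Ccl4, Ccl7 and Cxcl3 were at or below the estimate and are not read as epithelial expression.

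Receptors were low in epithelium when each class was pooled. Of the 22 receptors, 1 reached 5 CPM in RSPO1-Fc epithelium and 0 did in control epithelium, and all 22 summed to 9.05 CPM in RSPO1-Fc epithelium and 15.8 CPM in control epithelium. The one was Cx3cr1, the fractalkine receptor of macrophages, with 6.36 CPM (433 UMIs) in RSPO1-Fc epithelium and 2.61 CPM (162 UMIs) in control epithelium, 2.44-fold higher (2.03 to 2.94). Its annotated span on chromosome 9 overlaps Csrnp1, Gorasp1 and Xirp1 on the same strand, so its counts are uncertain, and its control level was below the free RNA estimate of 12.4 CPM. The call was lost when doublets were kept (log2 ratio 0.78) and when epithelial cells with 2 or more UMIs of non-epithelial markers were left out (0.13). Cxcr4 and Ackr3, the receptors of Cxcl12, had 0.985 and 1.32 CPM in RSPO1-Fc epithelium and 2.78 and 3.06 CPM in control epithelium. The control level of Cxcr4 was below its free RNA estimate of 14.4 CPM, and that of Ackr3 was just above its 2.69 CPM. Single control clusters passed 5 CPM, as Ackr3 had 11.3 CPM in cluster 4 (67 of 239 cells). Cxcr4 had 6.24 CPM in cluster 7 (32 of 155 cells) and Cx3cr1 had 8.46 CPM in cluster 6 (5 of 161 cells). Ccr2, Ccr6 and Ccr9 had 0 UMIs in RSPO1-Fc epithelium, which allows up to 0.0441 CPM.

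Within each library, several ligands were concentrated in few epithelial clusters. Clusters were made separately per library, so their numbers do not correspond. Ccl6 and Ccl9 were highest in the cluster with all 5 Paneth markers raised in both libraries: Ccl6 had 42.1 CPM there in RSPO1-Fc cells (cluster 10) and 113 CPM in control cells (cluster 4), and Ccl9 had 40.5 CPM and 22.1 CPM. These clusters held 68.4% and 92.0% of the epithelial Ccl6 UMIs of their libraries. The RSPO1-Fc one was shallow, with a median of 3896 UMIs and 11.4% mitochondrial UMIs in 116 cells, and the control one also had all 5 goblet markers raised.

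Cxcl14 was likewise highest in clusters led by Npy and Pnliprp2 in both libraries, at 67.9 CPM in RSPO1-Fc cluster 9 (71.7% of its UMIs) and 220.5 CPM in control cluster 1 (87.3%). A control cluster of 40 cells led by Gp2 and Sox2, which carried epithelial markers at 7208 CPM but stayed unnamed because the mast cell gene Ms4a2 was among its 10 leading genes, had 1860 CPM of Cxcl14 and was kept out of the class. Its macrophage markers summed to 695 CPM. Adding it and the shallow unnamed RSPO1-Fc cluster back kept every one of the 10 calls.

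Ccl5 and Ccl2 were concentrated in RSPO1-Fc cluster 7, 198 cells led by Lce3d and Lce1h with Csf2 among the leading genes. It held 75.0% of the epithelial Ccl5 UMIs (127 CPM) and 47.4% of the Ccl2 UMIs (71.8 CPM) of that library. Outside it, Ccl5 lay between 1.62 and 6.89 CPM in the RSPO1-Fc epithelial clusters, against 0 to 3.85 CPM in the control ones. Cxcl16 was also highest there at 432 CPM, yet its lowest RSPO1-Fc cluster, at 40.8 CPM, was about level with the highest control cluster, at 42.6 CPM. Cxcl5 reached 268.5 CPM in control cluster 0 and 3.52 CPM in control cluster 6, which has Lgr5 among its leading genes, and at most 13.2 CPM in an RSPO1-Fc cluster. Cxcl1 had 0 to 13.65 CPM in the RSPO1-Fc clusters and 30.96 to 79.0 CPM in the control ones. Clusters of a library are not replicates.

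**Figure D3:**
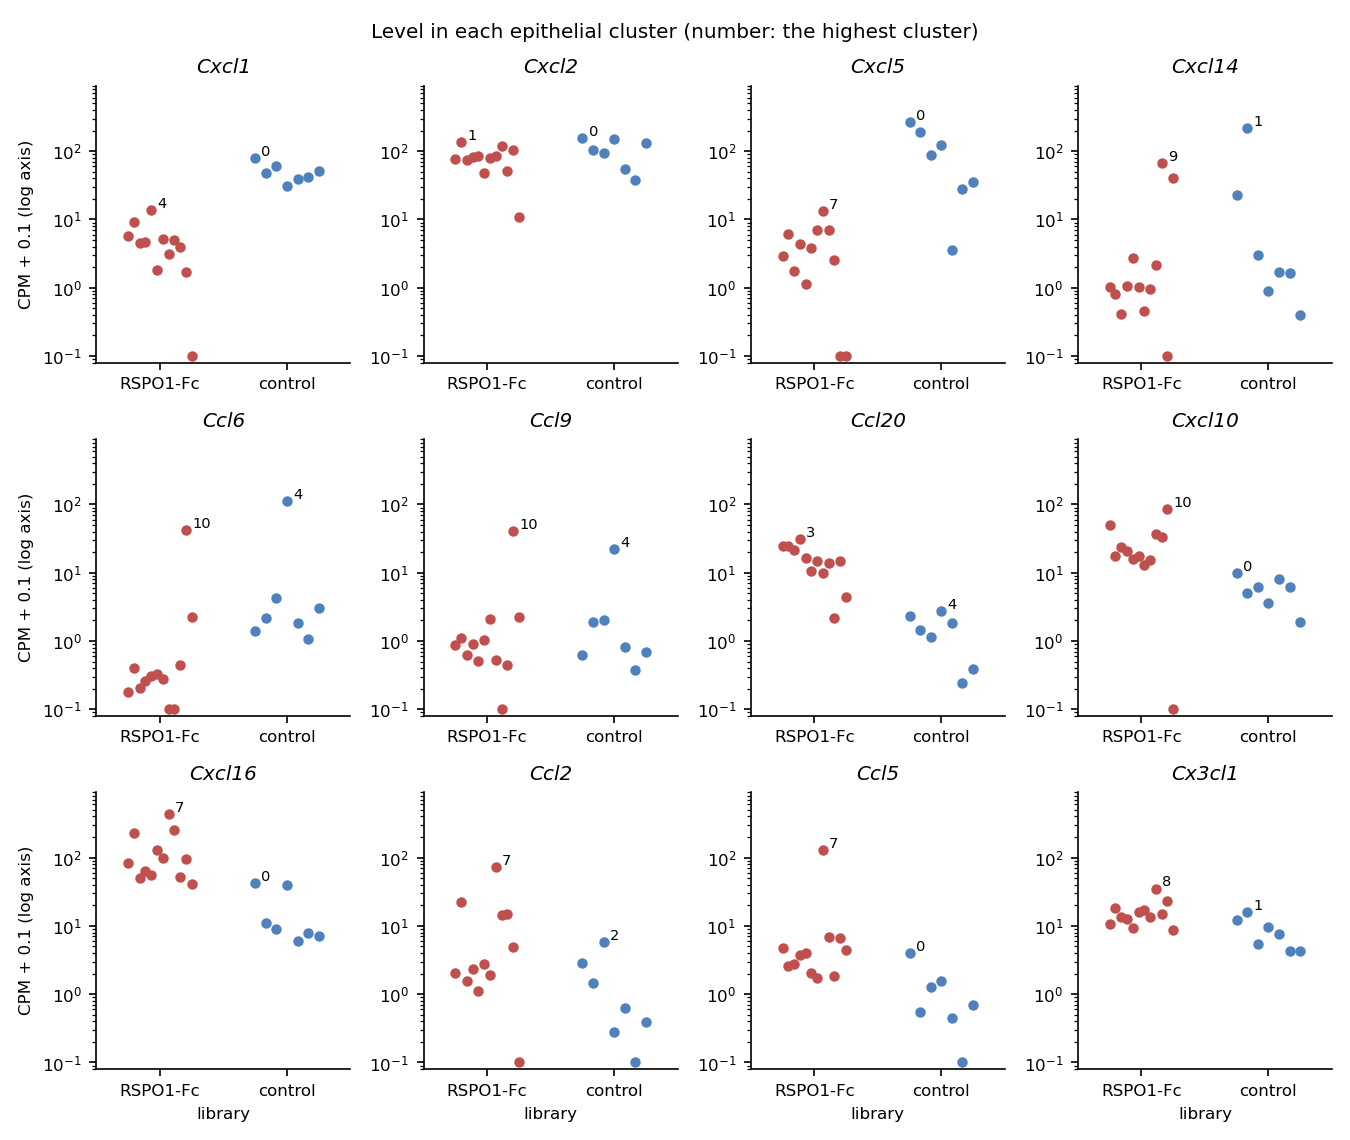
CPM + 0.1 on a log axis in each epithelial cluster of the RSPO1-Fc library (red, left) and the control library (blue, right) for 12 chemokines, with the number of the highest cluster. Cxcl1 points lie lower in the RSPO1-Fc library, Ccl6, Ccl9 and Cxcl14 are high in 1 or 2 clusters of each, and Ccl5 is high in RSPO1-Fc cluster 7.

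In the control library, chemokine genes were mostly highest per UMI outside the epithelium. The first comparison was over 5 classes, epithelial, macrophage-like, fibroblast-like, endothelial-like and pericyte-like cells. Of genes with at least 5 CPM in one of these, Ccl25, Ccl27a and Cx3cl1 were the ones highest in epithelial cells. For Ccl25 the ratio to macrophage-like cells, the next class, was 1.497 (1.028 to 2.267). Intervals included 1 for Ccl27a against fibroblast-like cells, 1.417 (0.9124 to 2.329), and Cx3cl1 against pericyte-like cells, 2.187 (0.8494 to 8.052). Some genes under 5 CPM, such as Ccl20 and Cxcl15, were also highest in epithelial cells. A class led a gene when it had at least 5 CPM and at least 4-fold more than each of the other 4, and 34 of the 65 genes reached 5 CPM in one of the 5. Macrophage-like cells led 16 of the 34 (47.1%), against 4.03% of all 12692 genes tested. Fibroblast-like cells led 4 (11.8%, against 2.46%), endothelial-like cells 2 (5.88%, against 2.48%), pericyte-like cells 1 (2.94%, against 1.73%) and epithelial cells 0, against 5.72%. Together the 3 stromal and vascular classes led 7 (20.6%, against 6.67%). The macrophage count did not hold when the lead was also set against the neutrophil-like, T cell-like, mast-like and B cell-like cells and the unnamed groups of the control, an alternative chosen after the data were seen. Macrophage-like cells then led 2 of the 34, Ccl12 and Cxcl9 (5.88%, against 0.575% of all genes), and the 3 stromal and vascular classes led 6 (17.6%, against 4.81%), since Cxcl14 was lost to the unnamed cluster at 1860 CPM.

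Macrophage-like cells shared most inflammatory ligands with other immune cells. Ccl3 and Ccl4, which attract monocytes and T cells, had 524 and 719 CPM in macrophage-like cells and 44.9 and 67.4 CPM in endothelial-like cells, the next of the 5 classes. Neutrophil-like cells had more of both, at 2109 and 1769 CPM, and mast-like cells had 484 and 2064 CPM. Cxcl2 had 2018 CPM in macrophage-like cells, 137 CPM in pericyte-like cells and 19160 CPM in neutrophil-like cells. The free RNA estimate above was made for epithelium only. Neutrophil markers summed to 353 CPM in pericyte-like, 840 CPM in fibroblast-like and 1388 CPM in macrophage-like cells, against 151300 CPM in neutrophil-like cells. Ccl12, a mouse ligand of Ccr2, had 155 CPM in macrophage-like and 3.48 CPM in fibroblast-like cells, and Cxcl9, an interferon-induced ligand of Cxcr3, had 14.2 CPM in macrophage-like and 0.580 CPM in fibroblast-like cells. Ccl9 (329 CPM), Cxcl16 (600.5 CPM) and Cxcl10 (162 CPM) were highest in macrophage-like cells, with 198, 306 and 41.1 CPM in the unnamed immune clusters. Ccl6 had 453.5 CPM in macrophage-like and 1632 CPM in neutrophil-like cells, and Cxcl3 had 87.9 and 974 CPM. Ccl24, a ligand of the eosinophil receptor Ccr3, had 109 CPM in macrophage-like cells and 441 CPM in the unnamed immune clusters, and Ccl17 had 5.57 and 292 CPM. Ccl7 and Ccl8 were highest in macrophage-like cells, at 220.3 and 186 CPM, beside 100.6 CPM of Ccl7 in pericyte-like and 97.5 CPM of Ccl8 in fibroblast-like cells. Ccl2 had 147 CPM in macrophage-like, 85.9 CPM in fibroblast-like and 1903 CPM in mast-like cells.

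Fibroblast-like cells had Cxcl14 at 2214 CPM, against 208 CPM in pericyte-like cells, and Cxcl5 at 929.5 CPM, against 133.6 CPM in epithelial cells, 6.96-fold more (6.59 to 7.34). Although Cxcl5 was lower per UMI in epithelium, the many and deep epithelial cells held 83.4% of its control UMIs and fibroblast-like cells 16.1%. Cxcl13, the B cell attractant that binds Cxcr5, had 24.4 CPM in fibroblast-like and 2.17 CPM in macrophage-like cells. Cxcl12, the stromal ligand of Cxcr4, was shared by endothelial-like cells at 165 CPM and fibroblast-like cells at 144 CPM, a ratio of 1.15 whose interval (0.969 to 1.36) includes 1. Epithelium held 8 UMIs of it in the control (0.129 CPM). Pericyte-like cells led Ccl11, the eosinophil attractant eotaxin, with 258 CPM against 52.2 CPM in fibroblast-like cells. They also had the highest Cxcl1, at 293 CPM against 137.5 CPM in fibroblast-like cells. These classes are not cleanly separate. In pericyte-like cells 7 of 10 fibroblast markers were raised, and in fibroblast-like cells 9 of 11 pericyte markers were. Endothelial-like cells led Ccl21a, a ligand of Ccr7, with 78.9 CPM against 0.309 CPM in macrophage-like cells, subject to the uncertainty from its copies.

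**Figure D4:**
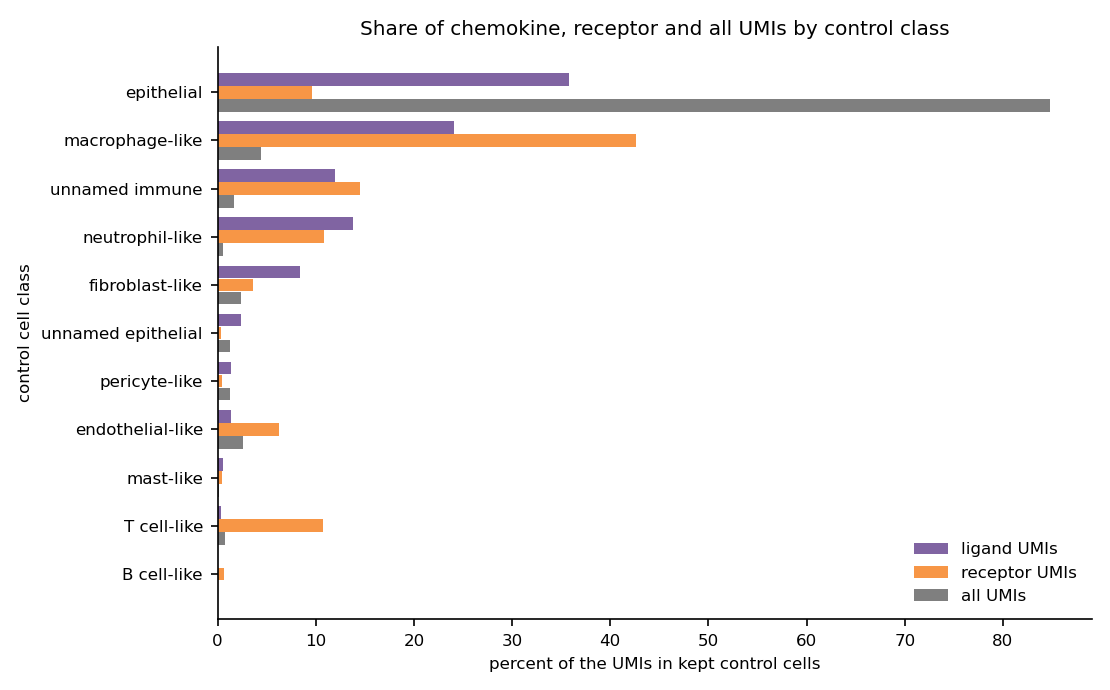
Percent of all ligand (purple), receptor (orange) and total (grey) UMIs of the kept control cells in each class. Epithelial cells hold 84.8% of all UMIs but 35.8% of ligand and 9.58% of receptor UMIs, while macrophage-like cells hold 4.41%, 24.1% and 42.6%.

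The 43 ligands summed to 5980 CPM in macrophage-like, 3916 CPM in fibroblast-like, 1170 CPM in pericyte-like and 556 CPM in endothelial-like cells, and to 334 CPM in RSPO1-Fc epithelium and 462 CPM in control epithelium. Epithelial cells held 35.8% of the ligand UMIs and 9.58% of the receptor UMIs of the control cells, where they held 84.8% of all UMIs.

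Of the receptor UMIs of the control cells, macrophage-like cells held 42.65%, the unnamed immune clusters 14.5%, neutrophil-like cells 10.8%, T cell-like cells 10.7% and endothelial-like cells 6.25%. Cx3cr1 had 664 CPM in macrophage-like cells and 5.80 CPM in fibroblast-like cells, 114.5-fold more (62.1 to 239), and 398 CPM in mast-like cells. Ccr1 had 346 CPM in macrophage-like cells and 1044 CPM in neutrophil-like cells. Ccr2 had 32.8 CPM in macrophage-like cells and 492 CPM in T cell-like cells. Cxcr4 had 156.5 CPM in macrophage-like and 152 CPM in endothelial-like cells, a ratio of 1.03 (0.890 to 1.19), beside 12.2 CPM in fibroblast-like and 485 CPM in neutrophil-like cells. Ackr3, which takes up Cxcl12, had 173.5 CPM in fibroblast-like, 85.7 CPM in endothelial-like and 30.0 CPM in pericyte-like cells. Ackr1, the chemokine-presenting receptor of venules, had 71.05 CPM in endothelial-like cells and 2.14 CPM in pericyte-like cells, although its span overlaps Cadm3 on the same strand. Ackr2, which clears inflammatory Ccl ligands, had 14.6 CPM in endothelial-like and 4.06 CPM in fibroblast-like cells. Ackr4, which clears Ccl19, Ccl21 and Ccl25, had 5.22 CPM in fibroblast-like cells from 9 UMIs.

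Some known pairs had both partners in one class and others did not. Macrophage-like cells held Ccl2, Ccl7 and Ccl12 with Ccr2, and Ccl3, Ccl6 and Ccl9 with Ccr1. Cxcl12 and Ackr3 were both high in fibroblast-like and endothelial-like cells, with Cxcr4 in endothelial-like and macrophage-like cells. Cx3cl1 was measured at 14.3 CPM in RSPO1-Fc epithelium and 9.36 CPM in control epithelium, and its receptor at 664 CPM in macrophage-like cells. The Cxcr2 ligands were found in epithelial, fibroblast-like, pericyte-like and macrophage-like cells, but Cxcr2 itself was under 5 CPM in all 6 classes. Cxcr6, the receptor of Cxcl16, and Ccr6, Ccr9 and Ccr10, the receptors of Ccl20, Ccl25 and the Ccl27 and Ccl28 ligands, were also under 5 CPM in all 6, so these epithelial ligands had no measured receptor among them. In the RSPO1-Fc library, where only epithelial cells were found, Cx3cl1 with the uncertain Cx3cr1 was the one pair with both partners at 5 CPM or more.

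Genes of the wider pathway were taken from 3 lists, read against the 7.99% and 20.4% of all genes that were higher and lower. Of 8 family genes outside the symbol rule, 1 reached 5 CPM in epithelium. This was Mif, a cytokine that also binds Cxcr2 and Cxcr4, with 1564 CPM in RSPO1-Fc epithelium and 545 CPM in control epithelium, 2.87-fold higher (2.84 to 2.91). Pf4, a platelet and macrophage chemokine, had 2288 CPM in macrophage-like cells, and Rarres2, which encodes chemerin, had 531 CPM in fibroblast-like and 427 CPM in pericyte-like cells.

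Of 27 genes for receptor signalling and chemokine handling, 19 were tested in epithelium, 1 was higher and 5 were lower, with a median log2 ratio of -0.33. Arrb1, an arrestin, was higher, at 9.21 CPM in RSPO1-Fc epithelium and 4.09 CPM in control epithelium. Adam10, the protease that sheds Cx3cl1 and Cxcl16, had 70.7 CPM in RSPO1-Fc epithelium and 152 CPM in control epithelium, a ratio of 0.466 (0.450 to 0.483). Adam17, which also sheds Cx3cl1, had 16.8 CPM and 23.95 CPM in the same order and was not called. The others that were lower were Pik3cg, Grk3, Rgs2 and Rgs10. In control epithelium Rgs2 and Rgs10 had 13.7 and 8.30 CPM. They had 530 and 385 CPM in macrophage-like cells and 579.5 and 303 CPM in T cell-like cells, and whether free RNA took part was not tested. The G protein subunit genes Gnai2 and Gng5 were not called, at 259.5 and 913.8 CPM in RSPO1-Fc epithelium and 369 and 909.3 CPM in control epithelium. Arrb1, Adam10, Adam17, Pik3cg and Grk3 lie outside the rule for named genes and were chosen after their values were seen, as were Icam1, Csf1, Il1r1 and Nfkbie below.

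Of 18 genes of NF-κB and its inducing cytokines, 16 were tested, 2 were higher and 6 were lower, with a median log2 ratio of -0.44. The inhibitor Tnfaip3 had 40.6 CPM in RSPO1-Fc epithelium and 17.6 CPM in control epithelium, and the antagonist Il1rn had 39.9 and 17.0 CPM. Lower were Nfkbiz (20.7 CPM in RSPO1-Fc and 70.6 CPM in control epithelium), the adhesion molecule Icam1 (3.81 and 22.1 CPM), the macrophage growth factor Csf1 (3.23 and 26.9 CPM), the receptor Il1r1 (1.09 and 12.6 CPM), Nfkbie and Il1b. Il1b had 0.0294 CPM in RSPO1-Fc epithelium and 29.8 CPM in control epithelium beside 1466 CPM in macrophage-like and 14030 CPM in neutrophil-like cells, and whether free RNA took part was not tested. Tnf was not called, at 44.0 CPM in RSPO1-Fc epithelium and 56.6 CPM in control epithelium. Nor was the inhibitor Nfkbia, at 341 CPM in RSPO1-Fc epithelium and 268 CPM in control epithelium, a ratio of 1.28 (1.25 to 1.30).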

How the data were processed

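Both were droplet single-cell libraries, per the labels' protocols, with mean reads per cell of 131291 (RSPO1-Fc) and 58414 (control) and a target of 5000 cells. Cell Ranger 2.1.1, Seurat 3.1.1 and the mm10 build are named in the submitters' processing notes, while the control matrix names software version 3.1.0, per the file headers. The deposited matrices hold UMI counts of every barcode, without normalization, which summed to 89437327 (RSPO1-Fc) and 91675581 (control).

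The tables were joined on 27514 shared identifiers, where 4 members carry another symbol in the RSPO1-Fc table. Filters left out 3 (RSPO1-Fc) and 128 (control) barcodes under 500 genes, 161 and 239 over 20% mitochondrial, and 71 and 77 with the highest scores against simulated doublets (0.8% per 1000). Each library was clustered with python-igraph 0.11.9 (2000 variable genes without members, 30 components, 20 neighbours, Leiden resolution 1). A cluster took a non-epithelial name from at least 3 markers 2-fold higher than in the other cells. Every other cluster was called epithelial, without a need for raised epithelial markers. A cluster stayed unnamed when it was led by dendritic markers, or was shallow with no marker of its own among its 10 leading genes. An otherwise epithelial cluster also did when those genes held more markers of another class. Counts were summed per class and scaled to CPM. Intervals are exact Poisson for levels, Clopper-Pearson for shares and, conditional on the summed counts, for ratios. A floor of 3 counts sets limits for 0. Coordinates are from GENCODE M21.

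With 1 library a group and cells that are not replicates, no test between groups was run. Named were members with at least 20 CPM in 1 of 6 classes, receptors with at least 5 CPM, called members and 11 genes always named. Members and lists were chosen with earlier results of these data known. The values of 1 named member are not reported here, though counts and sums include it. Alternatives included edgeR 4.0.16 scaling. The 2-fold call was run on simulated epithelial counts with counting noise alone, over 10543 genes: it recovered 100% of 200 genes changed 4-fold and called 0% of the others. Counting noise is small at these depths, so this does not check the calls against variation between cultures.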

Additional observations from a re-analysis of the deposited data

How the results depend on the processing

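No paired analysis was possible because each group is 1 library. Across 17 alternatives, 14 of them planned and 3 added after seeing the data (unnamed epithelial clusters added back, shallow epithelial clusters left out, a mixed dendritic and macrophage cluster added to the macrophage-like class), the 10 members called between RSPO1-Fc and control epithelium kept their call in 162 of 170 combinations, and 0 changed sign. The 6 higher members became 2 at a minimum of 20 CPM, by construction of that limit, and the 4 lower members became 14 at a minimum of 1 CPM. The 16 members led by macrophage-like cells became 2 when the immune classes and unnamed groups were compared as well, a further alternative added after seeing the data. The 7 members led by fibroblast-like, endothelial-like or pericyte-like cells became 4 with the percentile limit on cells, which left 74 fibroblast-like, 78 endothelial-like and 41 pericyte-like cells. Ccl2, Ccl5 and Ccl20 lost their call at 20 CPM alone, Cxcl14 in 2 clusterings and Cx3cr1 in 3 settings. Epithelial cells led 0 members in all settings. Depth limits low genes: 3 counts equal 0.0441 CPM in RSPO1-Fc epithelium, but more in the smaller classes.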

Other observations

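Receptors missing from the 6 classes were found in small immune clusters of the control library, which hold 18 to 166 cells each and have no counterpart in the RSPO1-Fc library. The 166 neutrophil-like cells had Cxcr2 at 986 CPM (894 to 1085), with Ccr1 at 1044 CPM and Cxcr4 at 485 CPM. They were also a source of ligands, with Cxcl2 at 19160 CPM, Ccl3 at 2109 CPM, Ccl4 at 1769 CPM and Ccl6 at 1632 CPM, and held 29.9% of the Cxcl2 UMIs of the control cells. Their median depth was 2371 UMIs, so small counts in them are imprecise.

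The 148 T cell-like cells had Cxcr6, the receptor of Cxcl16, at 877 CPM, Ccr2 at 492 CPM and Ccr6 at 89.2 CPM. Within them, the 91 cells led by Il17a and Il22 had 1309 CPM of Cxcr6 and the 57 cells with Foxp3 among their leading genes had 167 CPM, whereas Ccr6 stood at 44.8 CPM in the Il17a cells and 162 CPM in the Foxp3 cells. An unnamed cluster of 145 cells with dendritic and macrophage markers mixed had Ccr7 at 246 CPM, Ccl17 at 333 CPM, Ccl22 at 171 CPM and Cxcl2 at 4970 CPM. Ccr9, whose span overlaps another gene on the same strand, had 74.5 CPM there. An unnamed cluster of 53 cells led by Nkg7 had Ccl5 at 1499 CPM, seen in 13 of them. All 5 T cell markers were raised in that cluster, which was shallow, with a median of 2669 UMIs. The 22 mast-like cells had Ccl4 at 2064 CPM and Ccl2 at 1903 CPM, seen in 12 and 14 of the cells, and the 18 B cell-like cells had Ccr7 at 502.5 CPM, seen in 11 of them.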
